A study of Mus musculus with 2 samples.

Results

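The 40 genes described here encode the cyclins, the cyclin-dependent kinases (CDKs), the CDK inhibitors and the CDC25, Wee1 and Cks proteins that act on the same kinases. They were taken by gene symbol from a list of names, and all 40 were found among the 23282 rows of the expression table. Of these, 39 had at least 10 reads in at least 1 library and are called tested below, as were 12164 genes in all. The remaining gene, Cdkn3, had 8 control and 3 TSA reads.

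The 2 libraries came from naïve CD4+ T cells of wild-type female C57BL/6 mice aged 7 to 10 weeks, isolated from spleen and cultured for 1 day toward induced regulatory T (iTreg) cells. Both cultures received plate-bound anti-CD3 at 5 μg/ml, soluble anti-CD28 at 2 μg/ml, IL-2 at 1 ng/ml, TGF-β1 at 5 ng/ml, and antibodies to IFN-γ and IL-4 at 10 μg/ml each. One culture was given the vehicle DMSO (control) and the other 10 μM Tubastatin A (TSA), an inhibitor of the deacetylase HDAC6, and the comparison asks what TSA does to gene expression early in iTreg differentiation. Each condition had 1 library, so no difference below has a replicate check and no p-value is given.

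A resting T cell enters the cell cycle when D-type cyclins with CDK4 or CDK6, and then E-type cyclins with CDK2, inactivate the retinoblastoma protein and release E2F transcription factors. Cyclin A then takes the cell through DNA replication, and cyclin B with CDK1 drives mitosis. CDK inhibitors of the CIP/KIP and INK4 families restrain these kinases, CDC25 phosphatases activate them and the Wee1 and Myt1 kinases hold them off. A second branch of the family, among them CDK7, CDK8, CDK9, CDK12 and CDK13, phosphorylates RNA polymerase II or the machinery around it and serves transcription and splicing.

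The control library held 10845868 reads on genes and the TSA library 10432698. Where a pair of read numbers is given, the control comes first. QuantSeq reads start near the 3′ end of a transcript, about 1 read per transcript copy, so that read numbers of different genes can be set beside each other without a correction for length. A fold change is the TSA value over the control value after the authors' normalization, log2 fold changes hold a pseudocount of 1 normalized count, and the range in parentheses is the exact Clopper-Pearson 95% interval of the ratio of the libraries. These intervals cover counting error only, since each condition had 1 library. Copies made by PCR could not be recognised, so the intervals may be too narrow even for that. A gene rose or fell when it passed 2-fold, the size the study used. Cd4 had 2434 and 2549 reads, Cd3e 1565 and 1352, and Foxp3 1633 and 965, whereas the summed markers of B, myeloid, NK, CD8 T and erythroid cells had between 0 and 87 reads per list in either library. Hdac6, whose protein and not its mRNA is the target of TSA, had 146 and 166 reads.

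The members that drive entry into S phase and mitosis had lower values in TSA-treated iTreg cells, the D-type cyclins went in different directions, and the transcriptional cyclins and CDKs lay around no change. Of the 39 tested members, 25 had a lower and 14 a higher value in the TSA library, and their median log2 fold change was -0.25. Across all 12164 tested genes the median was 0.01 and 48.6% were lower. Past 2-fold were 2 members, Ccnd1 (higher) and Ccne2 (lower), where 14.7% of all tested genes passed, 11.5% higher and 3.15% lower. The counting interval lay below 1 for 24 members, above 1 for 8 and included 1 for 7, so that it excluded 1 for 32 of 39. It excluded 1 for 56.1% of all tested genes, lying below for 28.0% and above for 28.1%. Depth matters for these shares, because most members have many reads. Among the 8188 well-read genes, whose normalized counts averaged 100 or more, 2.78% passed 2-fold, 57.1% were lower, 5.90% were lower past 1.5-fold, and the interval excluded 1 for 59.9%, below it for 36.5% and above it for 23.4%. Of the 35 members in that class, 22 were lower, 7 were lower past 1.5-fold, 1 passed 2-fold, and the interval lay below 1 for 22 and above it for 7. The median log2 fold change of these 35 members was -0.24, and that of all well-read genes was -0.06.

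**Figure D1:**
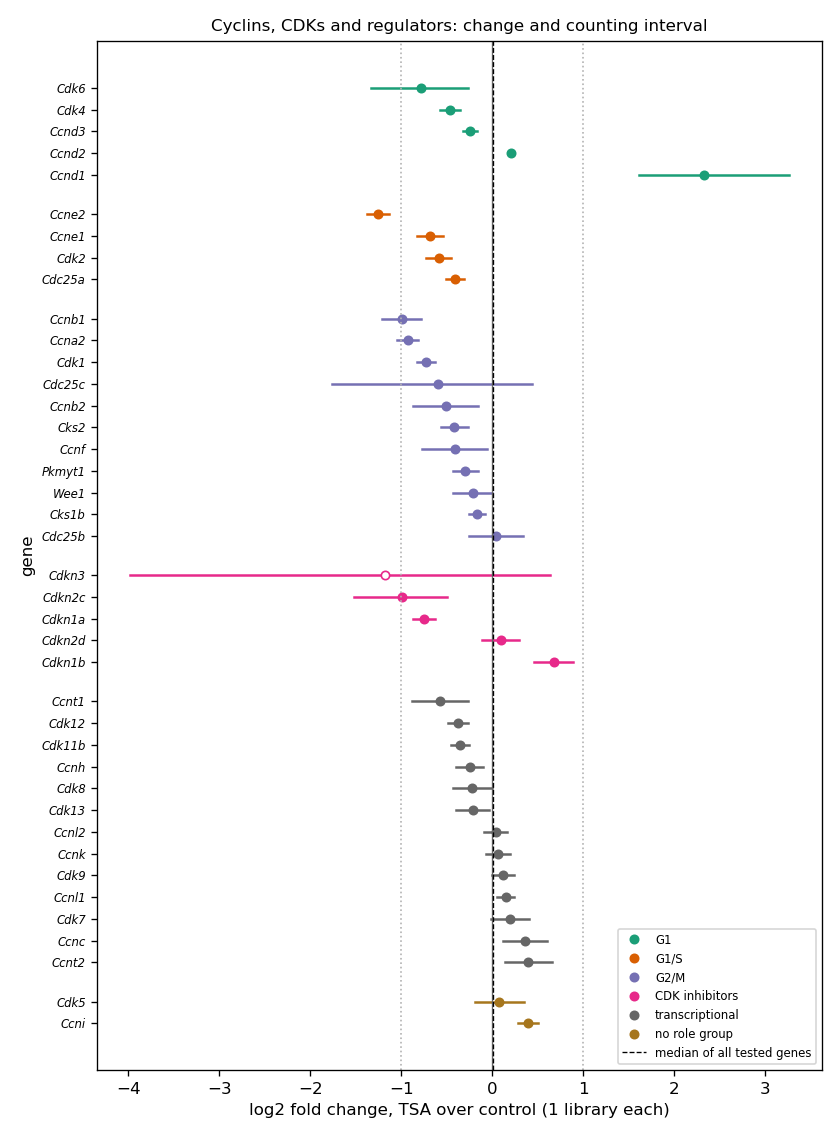
Log2 fold change of the 40 members, TSA over control, by role, with the exact 95% counting interval of the reads as a bar (1 library per condition, Cdkn3 as an open circle because it had under 10 reads). Dotted lines mark 2-fold and the dashed line the median of all tested genes, 0.01; all 4 G1/S members and 10 of 11 G2/M members lie to the left of 0, whereas the 13 transcriptional members lie between -0.57 and 0.40.

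In all, the members took 59996 control and 57877 TSA reads, 0.553% and 0.555% of each library. That near-equal share hides opposite parts. Ccnd2 alone made up 41.8% of the control and 50.5% of the TSA member reads, and without it the tested members went from 34899 to 28626 reads, 0.812 times the control (0.800–0.825). Among members that serve the cell cycle other than Ccnd2, 19 tested genes together were at 0.704 of the control (0.689–0.719). In such bulk samples, fewer cells in a phase and less RNA per cell cannot be told apart.

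**Figure D2:**
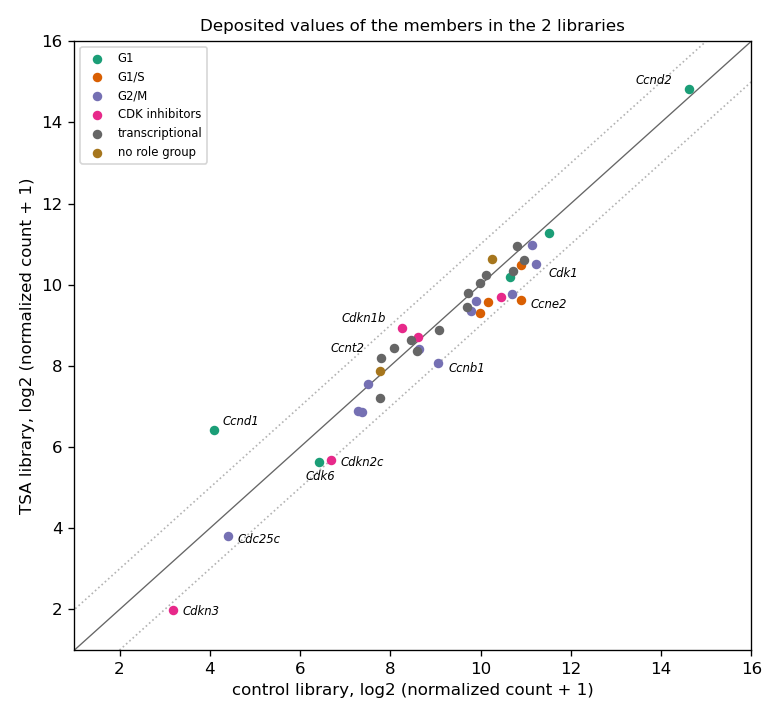
Deposited values of the 40 members as log2 of the normalized count plus 1, control library on the x axis and TSA library on the y axis, 1 point per gene coloured by role. The solid line marks equal values and the dotted lines 2-fold; Ccnd2 is the highest member in both libraries, and Ccnd1 is the only tested member above the upper dotted line.

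The G1 members are the D-type cyclins, which report growth signals, and their kinases. Ccnd2, the D-type cyclin that dominates in activated lymphocytes, had 25089 and 29248 reads, a fold of 1.15 (1.13–1.17). Ccnd3, the D-type cyclin of developing lymphocytes, had 2923 and 2494 reads, a fold of 0.845 (0.801–0.891). Ccnd1 (chr7:144929931-144939925, GRCm38, minus strand), which most lymphocytes barely use, had 16 and 85 reads and rose 5.01-fold (3.06–9.62), a log2 fold change of 2.33. Of the 3976 tested genes whose normalized counts averaged under 100, as those of Ccnd1 did, 32.2% were higher past 2-fold. The member that rose was thus among those with the fewest reads, and in the TSA library it was still 0.267% of the D-type cyclin reads.

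Within the D-type cyclins Ccnd2 took 89.5% of the control and 91.9% of the TSA reads, and Ccnd3 10.4% and 7.84%. The ratio of Ccnd2 to Ccnd3 reads went from 8.58 to 11.7, 1.37 times (1.29–1.45), a comparison inside each library that does not depend on how the libraries were scaled. For Ccnd1 to Ccnd3 the ratio went from 0.00547 to 0.0341, 6.23 times (3.61–11.4). Summed, the D-type cyclins had 28028 and 31827 reads, 1.12 times the control (1.11–1.14).

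The kinases that D-type cyclins switch on were lower. Cdk4 had 1593 and 1168 reads, a fold of 0.726 (0.673–0.783). Cdk6, its close relative, had only 84 and 49 reads, a fold of 0.583 (0.398–0.831). The ratio of Cdk6 to Cdk4 differed by 0.796 times with an interval that included 1 (0.543–1.16), so at this depth a difference between the kinases could not be seen. Both kinases were thus lower, as was Ccnd3, whereas Ccnd2 and Ccnd1 were higher.

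All 4 G1/S members were lower in the TSA library. Their median log2 fold change was -0.64, and they summed to 5935 and 3649 reads, 0.609 of the control (0.584–0.635). Of all tested genes, 8.34% were lower past 1.5-fold, and of these 4 members 3 were. Ccne2 (chr4:11191351-11204779, GRCm38, plus strand), an E-type cyclin that is a classical E2F target, had 1882 and 797 reads and fell to 0.420 of the control (0.385–0.456), a log2 fold change of -1.25. Ccne1, the other E-type cyclin, had 1014 and 638 reads, a fold of 0.624 (0.563–0.689). Their kinase Cdk2 had 1135 and 762 reads, a fold of 0.665 (0.606–0.729).

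Cdc25a, the phosphatase that removes the inhibitory phosphates from CDK2, was the least lowered of the group, with 1904 and 1452 reads and a fold of 0.755 (0.705–0.809). The E-type cyclins as a pair went from 2896 to 1435 reads, 0.491 of the control (0.460–0.523). The balance between them moved as well: Ccne2 was 65.0% (Clopper-Pearson 63.2–66.7) of the control and 55.5% (52.9–58.1) of the TSA reads of the E-type cyclins. The ratio of Ccne2 to Ccne1 went from 1.86 to 1.25, 0.673 times (0.590–0.768). An exon of Ints8 lies on the opposite strand within the last 1000 bases of Ccne2, and the strand setting of the counting is not given in the sources used here, so their reads cannot be told apart. Ints8 itself, a subunit of the Integrator complex, had 722 and 564 reads, a fold of 0.774 (0.692–0.865).

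Of the 11 G2/M members 10 were lower, and the median log2 fold change was -0.41. No G2/M member passed 2-fold, 4 were lower past 1.5-fold, and the interval lay below 1 for 9 and included 1 for 2. Of all tested genes 8.34% were lower past 1.5-fold and 28.0% had an interval below 1, and of the well-read ones 5.90% and 36.5%. Together they had 9552 and 6843 reads, 0.709 of the control (0.688–0.732). Ccnb1, Ccna2 and Cdk1 had the lowest fold changes of the group.

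Ccnb1 (chr13:100778650-100786570, GRCm38, minus strand), cyclin B1, had 530 and 268 reads, a fold of 0.501 (0.431–0.581) that lies just inside the 2-fold limit. Ccna2, cyclin A2, the S-phase and G2 cyclin, had 1652 and 876 reads, a fold of 0.525 (0.483–0.570). Cdk1, the kinase of both, had 2404 and 1468 reads, a fold of 0.605 (0.566–0.645). These 3 genes make the core mitotic kinase complexes, and the ratio of Ccna2 to Ccnb1 differed by 1.05 times (0.884–1.25), an interval that spans equal change.

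Ccnb2, cyclin B2, had 165 and 117 reads, a fold of 0.704 (0.549–0.895). Its ratio to Ccnb1 gave a difference between the B-type cyclins, since Ccnb1 to Ccnb2 went from 3.21 to 2.29, 0.713 times (0.535–0.953). Ccnf, cyclin F, which is an F-box protein of the SCF ubiquitin ligase and binds no CDK, had 155 and 118 reads, a fold of 0.756 (0.588–0.964). Cks2 and Cks1b are small subunits that dock CDKs to their substrates. Cks2 had 873 and 661 reads, a fold of 0.750 (0.677–0.830), and Cks1b 2231 and 2011 reads, a fold of 0.893 (0.840–0.948), and their ratio differed by 0.840 times (0.745–0.946).

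Other members of the group set the activity of CDK1. Wee1, the nuclear kinase that blocks CDK1, had 393 and 342 reads, a fold of 0.862 (0.743–0.999). Pkmyt1, its membrane-bound relative, had 948 and 780 reads, a fold of 0.815 (0.740–0.897). The ratio of Cdk1 to Wee1 went from 6.12 to 4.29, 0.702 times (0.597–0.825), so that the transcript of the kinase lay further below the control than that of its inhibitor.

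Cdc25b, a CDC25 phosphatase that starts CDK1 activation, had 181 and 189 reads, a fold of 1.03 (0.839–1.27). It was the only G2/M member with a higher value, and its interval included 1. Cdc25c, which acts on CDK1 at mitotic entry, had 20 and 13 reads, a fold of 0.660 (0.294–1.36), too few to place it. Against Cdc25a, the ratio Cdc25a to Cdc25b went from 10.5 to 7.68, 0.730 times (0.586–0.911).

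Genes of proliferating cells outside the list were lower beside the G1/S and G2/M members, with 1 exception. Mki67, which encodes the proliferation antigen Ki-67, had 1861 and 653 reads (0.348, 0.317–0.380), Top2a, the topoisomerase of dividing cells, 8156 and 4420 (0.537), and Pcna, the sliding clamp of DNA polymerase, 3627 and 2724 (0.744). Mcm2, a subunit of the replicative helicase, had 3726 and 3714 reads (0.987, 0.943–1.03). How far the share of cycling cells sets the values of the cyclins and CDKs was not tested.

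Many G2/M promoters carry CCAAT boxes, bound by NF-Y, at a regular distance from one another, and a cell cycle genes homology region (CHR), bound by the MuvB complex that turns these genes off in resting cells and on in G2. Promoters of 31 of the 40 members were found in RefSeq (GRCm38.p6), and the window from 200 bases before to 20 bases after the start was searched on both strands. The promoters of 5 G2/M members and, for contrast, of the G1/S member Cdc25a are shown 5′ to 3′ in the direction of the gene; capitals mark TTTGAA (CHR), CCAAT and the E2F-like TTTNNCGC, on either strand, and none of the marked matches overlaps another. The windows are chr13:100786467-100786686 (minus strand) for Ccnb1, chr9:70421535-70421754 (minus) for Ccnb2, chr10:69352893-69353112 (minus) for Cdk1, chr17:24251390-24251609 (minus) for Ccnf, chr3:89418272-89418491 (minus) for Cks1b and chr9:109875379-109875598 (plus) for Cdc25a.
Ccnb1: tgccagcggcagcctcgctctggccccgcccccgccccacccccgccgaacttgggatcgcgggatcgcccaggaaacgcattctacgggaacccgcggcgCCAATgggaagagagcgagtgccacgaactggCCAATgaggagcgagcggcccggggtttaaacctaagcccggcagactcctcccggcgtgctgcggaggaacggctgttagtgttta
Ccnb2: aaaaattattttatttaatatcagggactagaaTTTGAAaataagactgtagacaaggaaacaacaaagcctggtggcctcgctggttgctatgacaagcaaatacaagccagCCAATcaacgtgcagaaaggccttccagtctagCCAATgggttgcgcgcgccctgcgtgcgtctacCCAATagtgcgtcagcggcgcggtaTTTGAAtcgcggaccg
Cdk1: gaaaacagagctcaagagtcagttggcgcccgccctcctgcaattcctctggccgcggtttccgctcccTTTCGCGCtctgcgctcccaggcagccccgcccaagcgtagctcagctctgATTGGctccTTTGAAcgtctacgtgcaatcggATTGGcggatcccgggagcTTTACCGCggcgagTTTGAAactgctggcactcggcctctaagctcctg
Ccnf: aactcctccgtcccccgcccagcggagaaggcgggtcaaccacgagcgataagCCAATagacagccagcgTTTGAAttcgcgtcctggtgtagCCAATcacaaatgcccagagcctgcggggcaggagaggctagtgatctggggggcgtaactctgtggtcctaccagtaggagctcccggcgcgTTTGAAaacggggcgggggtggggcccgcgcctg
Cks1b: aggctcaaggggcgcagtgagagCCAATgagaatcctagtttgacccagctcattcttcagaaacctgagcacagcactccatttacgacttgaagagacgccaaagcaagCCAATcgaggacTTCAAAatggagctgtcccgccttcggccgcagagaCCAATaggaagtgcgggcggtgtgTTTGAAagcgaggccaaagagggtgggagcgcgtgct
Cdc25a: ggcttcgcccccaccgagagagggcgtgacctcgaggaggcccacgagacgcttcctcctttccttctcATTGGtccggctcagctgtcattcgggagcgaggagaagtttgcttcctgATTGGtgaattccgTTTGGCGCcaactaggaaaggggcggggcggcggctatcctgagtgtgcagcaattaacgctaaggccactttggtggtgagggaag

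CCAAT was present in all 7 G2/M promoters found (those above, Cdc25b and Cks2), in 2 of 3 G1/S, 1 of 3 G1, 3 of 5 inhibitor and 4 of 12 transcriptional promoters, and in 31.0% of the 32851 promoters searched. The first letters of neighbouring boxes stood 32 bases apart in Ccnb1 and Cdk1 and 33 apart at both steps in Ccnb2, but 40 apart in Ccnf, 88 and 48 in Cks1b and 50 in Cdc25a. TTTGAA was present in 4 of 7 G2/M promoters (Ccnb2, Cdk1, Ccnf and Cks1b), in Cdkn3 and Ccni, in none of 3 G1, 3 G1/S and 12 transcriptional promoters, and in 13.4% of all. In these 4 promoters a copy lay close to the start, at base 5 after the start in Ccnb2 and at bases -15, -14 and -17 in Cdk1, Ccnf and Cks1b. The E2F-like letters were in Cdk2, Cdc25a, Cdk6 and Cdk1, 4 of 31 members, and in 3.90% of all promoters.

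The letters did not sort the G2/M members by their values. Log2 fold changes of the 4 with TTTGAA were -0.51 (Ccnb2), -0.72 (Cdk1), -0.40 (Ccnf) and -0.16 (Cks1b), and those of the 3 without were -0.996 (Ccnb1), -0.41 (Cks2) and 0.05 (Cdc25b). A match describes the sequence and is not evidence of a bound factor, and its absence says only that these letters are not in the window.

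The CDK inhibitors were split, 2 lower and 2 higher. Cdkn1a (chr17:29090976-29100727, GRCm38, plus strand), the p53 target p21, had 1388 and 833 reads, a fold of 0.595 (0.545–0.648). Cdkn1b (chr6:134920401-134925513, GRCm38, plus strand), p27, which keeps T cells quiescent, had 302 and 488 reads, a fold of 1.60 (1.38–1.85). Both belong to the CIP/KIP family that binds cyclin-CDK2 complexes, and they lay on opposite sides of no change with intervals that did not overlap.

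The ratio of Cdkn1a to Cdkn1b went from 4.60 to 1.71, 0.371 times (0.313–0.441). As shares, Cdkn1a was 82.1% (80.2–83.9) of the control and 63.1% (60.4–65.7) of the TSA reads of this pair. Of the INK4 inhibitors, which bind CDK4 and CDK6, Cdkn2c (p18) had 101 and 51 reads, a fold of 0.505 (0.350–0.707), and Cdkn2d (p19) 390 and 421 reads, a fold of 1.07 (0.929–1.23). The interval lay below 1 for Cdkn2c and included 1 for Cdkn2d, and the ratio of Cdkn2c to Cdkn2d went from 0.259 to 0.121, 0.468 times (0.318–0.682). Cdkn3, a phosphatase that acts on CDK2, was too rare for a statement. The median over the 4 tested inhibitors, -0.33, stands for none of them.

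**Figure D3:**
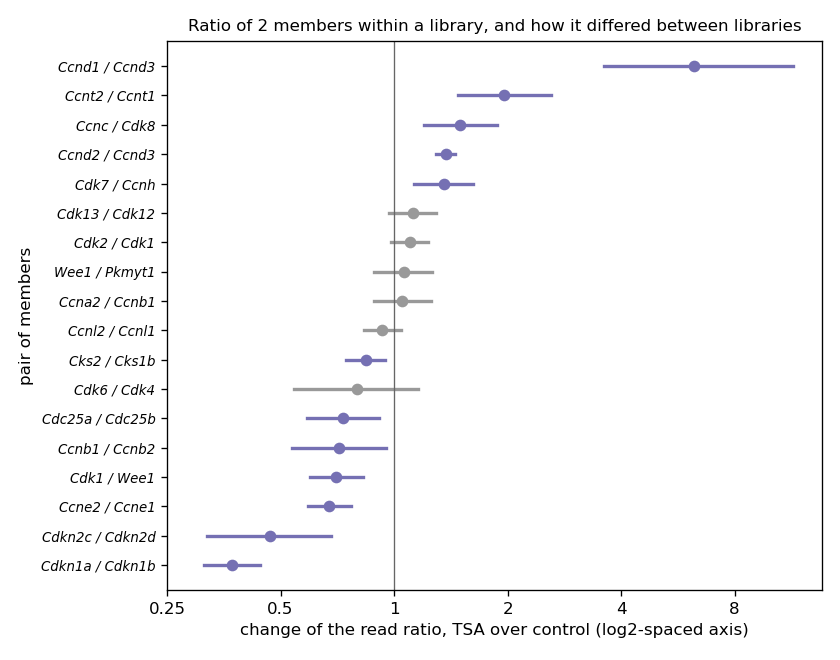
Change of the read ratio of 18 pairs of members, TSA library over control library, on a log2-spaced axis, with the exact 95% interval as a bar and grey where the interval includes 1. Ccnd1 to Ccnd3 lies at 6.23, Ccnt2 to Ccnt1 at 1.96 and Cdkn1a to Cdkn1b at 0.371. Which gene of a pair is the numerator was a free choice, and the pairs were chosen with earlier results of these data known. Of the 18 intervals 12 exclude 1. For single genes the interval excluded 1 for 56.1% of those tested and 59.9% of the well-read ones, and no share over other pairs was computed.

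Of the 13 transcriptional members 6 were lower and 7 higher, with a median log2 difference of 0.04, and none passed 1.5-fold. Their intervals lay below 1 for 6, above 1 for 4 and included 1 for 3, and their sum was 11190 and 10711 reads, 0.948 of the control (0.923–0.973). An interval excluded 1 for 56.1% of all tested genes and for 59.9% of the well-read ones, below it for 28.0% and 36.5% and above it for 28.1% and 23.4%. Cyclins T1 and T2 are the alternative partners of CDK9 in the elongation factor P-TEFb. Ccnt1 (chr15:98538689-98570923, GRCm38, minus strand) had 218 and 148 reads, a fold of 0.674 (0.542–0.832), and Ccnt2 (chr1:127774164-127808061, GRCm38, plus strand) had 219 and 292 reads, a fold of 1.32 (1.10–1.58). Their shared kinase Cdk9 had 1100 and 1211 reads, a fold of 1.09 (1.004–1.18).

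Thus Ccnt1 and Ccnt2 were even in the control library, where Ccnt2 was 50.1% of their reads, and uneven in the TSA library, where it was 66.4%. The ratio of Ccnt2 to Ccnt1 reached 1.97 with TSA, 1.96 times that of the control (1.48–2.60). In the Mediator kinase module, cyclin C (Ccnc) had 267 and 347 reads, a fold of 1.29 (1.09–1.52), and its kinase Cdk8 381 and 331, a fold of 0.860 (0.740–0.999), and the ratio of Ccnc to Cdk8 went from 0.701 to 1.05 (interval of the change 1.20–1.87). In the CDK-activating kinase, which is also part of the initiation factor TFIIH, Cdk7 had 347 and 401 reads, a fold of 1.14 (0.989–1.32), and cyclin H (Ccnh) 821 and 699, a fold of 0.843 (0.761–0.934), with a ratio that differed by 1.36 times (1.13–1.62). In the Mediator module and the CDK-activating kinase, the read ratio of cyclin and kinase had an interval of change that excluded 1. For P-TEFb this held for the ratio of the alternative cyclins, and Cdk9 was not set against either.

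Cyclin K (Ccnk), the partner of CDK12 and CDK13, had 837 and 886 reads, a fold of 1.05 (0.953–1.15). Cdk12, which sustains elongation through long genes of the DNA damage response, had 1666 and 1299 reads, a fold of 0.772 (0.717–0.831), and Cdk13 540 and 471, a fold of 0.864 (0.762–0.979). The interval of the ratio of Cdk13 to Cdk12, 1.12 times (0.967–1.29), included 1. Both kinases were below the control, whereas their cyclin was not.

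The cyclins L and CDK11 act in splicing. Ccnl1 had 1787 and 1999 reads, a fold of 1.11 (1.04–1.18), Ccnl2 1011 and 1051, a fold of 1.03 (0.943–1.12), and Cdk11b 1996 and 1576, a fold of 0.782 (0.731–0.836). As with cyclin K and cyclin C, the kinase was lower and the cyclins were not. Other complexes did not share this. Cyclin H (0.843) and cyclin T1 (0.674) were lower, whereas Cdk7 (1.14) and Cdk9 (1.09) were not. Over all branches, 8 of the 11 tested CDK genes were lower and 3 higher (median -0.35). The 17 cyclin genes were split 9 lower to 8 higher. Of all tested genes 48.6% were lower, and of the well-read ones 57.1%. The cyclins, at 52.9%, lay between these shares, and the CDKs, at 72.7%, lay above both.

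Of the members outside these roles, cyclin I (Ccni), an atypical cyclin, had 1207 and 1601 reads, a fold of 1.31 (1.22–1.42). Cdk5, an atypical CDK best known in neurons, had 218 and 233 reads, a fold of 1.06 (0.876–1.28).

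Cyclins are removed by the SCF and APC/C ubiquitin ligases, and 3 lists of related genes were set beside the members. Of 29 SCF and APC/C genes, all tested, 22 were lower and 7 higher (median log2 fold change -0.15), the interval lay below 1 for 13 and above it for 3, and 2 fell. Among all tested genes 48.6% were lower, 28.0% had an interval below 1 and 3.15% fell, and among those averaging 100 or more normalized counts 57.1%, 36.5% and 1.31%. The 2 that fell were Ube2c (584 and 184 reads, 0.313, 0.263–0.369), the ubiquitin-conjugating enzyme that starts chains for the APC/C, and Cdc20 (668 and 329, 0.488, 0.426–0.557), its mitotic activator. The genes of the list with the most reads were the APC/C subunit Anapc5 and the SCF subunits Skp1a and Rbx1, with folds of 0.945, 0.957 and 0.926.

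Of 27 upstream regulators and partners, 20 were lower and 7 higher with a median of -0.20, beside the same 48.6% of all tested genes and 57.1% of the well-read ones. Of these genes 2 fell, beside 3.15% and 1.31%, and both act on the G2/M members. Foxm1, the transcription factor of G2/M genes, had 319 and 110 reads, a fold of 0.343 (0.272–0.425). Plk1, the polo-like kinase that activates CDC25C and marks Wee1 for degradation, had 950 and 412 reads, a fold of 0.430 (0.382–0.483). Other genes with many reads, the MuvB subunit Rbbp4 (0.994) and the PP2A inhibitor Arpp19 (0.879), lay nearer to 1.

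**Figure D4:**
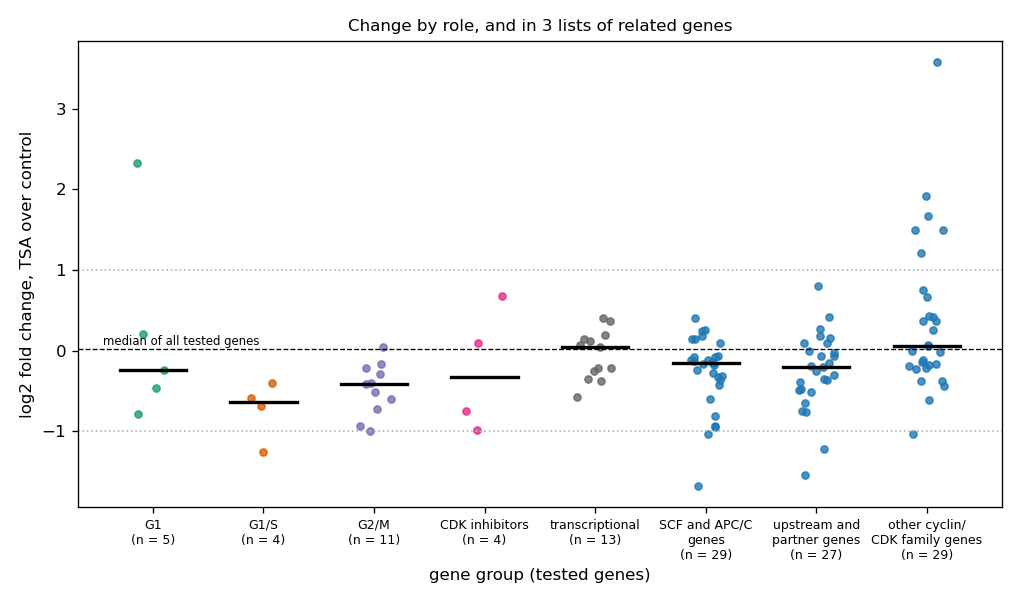
Log2 fold change of each tested gene, TSA over control, by role of the members (left 5 columns) and in 3 lists of related genes (right 3 columns, blue), with a black bar for the median of each column; points are spread sideways only to be seen. The G1/S median of -0.64 is the lowest of the columns and the transcriptional median of 0.04 lies at the dashed line for all tested genes (0.01).

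Reads from opposite strands limit some of these values. For 9 members (Ccna2, Ccnc, Ccnd1, Ccnd2, Ccnd3, Ccne2, Ccnh, Cdk4 and Pkmyt1), GENCODE M21 places an exon of a gene on the other strand within the last 1000 bases. Where that neighbour was in the table, its log2 fold change was -0.61 for Exosc9 beside Ccna2, 0.59 for Tstd3 beside Ccnc, 0.03 for Oraov1 beside Ccnd1, -0.26 for Bysl beside Ccnd3, -0.21 for Rasa1 beside Ccnh, 0.08 for Tspan31 beside Cdk4 and -0.27 for Paqr4 beside Pkmyt1. Oraov1 had 66 and 68 reads, beside 16 and 85 for Ccnd1. The part of the neighbours in the members' reads was not tested.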

How the data were processed

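The data were 2 QuantSeq 3′ libraries, sequenced as single-end 75-nt reads, 1 per condition, and samples were grouped by their treatment labels. The authors deposited 1 log2 value per gene and library, log2 of a normalized count plus 1; Bowtie2, bedtools and mm10 come from the submitters' processing notes, and the annotation, strand setting and normalization method are not given in the sources used here. Back-transformed values were whole multiples of 1.005 (control) and 0.9951 (TSA), within 0.1 of a read for 99.7% and 99.9% of genes with 1 to 300 reads, and were divided by these steps to give reads, 10845868 and 10432698 in all. In the control library, 1940 genes without a read were listed slightly above 0 and were set to 0 reads. A floor of 3 reads is a CPM of 0.277 (control) and 0.288 (TSA). No per-sample column was left unused.

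The log2 fold change is the difference of the deposited values, TSA minus control. Tested genes, over the whole table, had 10 reads or more in 1 library or both, and the call was a change past 2-fold. Intervals were exact Clopper-Pearson 95% intervals of the share of TSA reads, rescaled by the authors' normalization, and exact conditional intervals of the odds ratio for the 18 ratios, without adjustment for their number. They compare the 2 libraries, not the conditions. Alternatives were other scalings, pseudocounts, filters, thresholds, an interval level of 99%, other role assignments and, chosen after seeing the data, genes whose normalized counts averaged 100 or more, or under 100.

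Named genes were every member, the genes of 3 related lists past 2-fold and up to 3 more of each with the most reads, Hdac6, Foxp3, Mki67 and identity markers; the opposite-strand neighbours were added later. One gene of the related lists that was due to be named is left out. The members, role groups, pairs and lists were chosen with earlier results of these data known. Positions came from GENCODE M21 (GRCm38) and promoters from RefSeq (GRCm38.p6). The steps were tested on simulated data and run with Python 3.11.15, numpy 2.4.6, scipy 1.17.1 and pandas 2.3.3.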

Additional observations from a re-analysis of the deposited data

How the results depend on the processing

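No paired analysis was possible because each condition had a single library, and for the same reason no replicate could be left out. No member changed sign under another scaling or pseudocount, and 1 of them, Cdkn3, changed its side of 2-fold. Of 240 member values under these alternatives, 238 stayed within the counting interval; the exceptions were Ccnd2 at 0.28 (total reads) and 0.25 (upper quartile). Of 80 values of counts and medians, 77 stayed close to those reported. The number of members past the threshold was 12 (2 higher, 10 lower) with a 1.5-fold threshold and 1 among genes whose normalized counts averaged 100 or more, an alternative chosen after seeing the data, where Ccnd1 was not among the genes counted. The median of the CDK inhibitors was -0.75 without a filter, which adds Cdkn3, and -0.33 with it. With 1 library per condition, no value separates the treatment from the spread between cultures.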

Other observations

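Of 39 listed cyclin, CDK and inhibitor genes outside the 40 members, 38 were in the table and 29 were tested, with 14 lower, 15 higher and a median log2 fold change of 0.06. Past 2-fold were 1 lower and 6 higher, where 3.15% of all tested genes were lower and 11.5% higher past that size. Of tested genes averaging under 100 normalized counts, as all 6 higher ones did, 32.2% were higher past 2-fold. The lower one was Cdk5r1, the p35 activator of CDK5, with 195 reads in the control and 96 in the TSA library, a fold of 0.490 (0.378–0.625). Among the higher ones, Cdkn1c, the third CIP/KIP inhibitor p57, had 13 and 39 reads, a fold of 2.83 (1.55–6.06), and Cdkl2, a CDK-like kinase, had 10 and 41, a fold of 3.78 with an interval above 1. Ccnjl had 12 and 36 reads (2.82, 1.51–6.27), Cdkl4 had 4 and 15 (3.17), Cdk14 had 5 and 13 with an interval that included 1, and Cdk3-ps had 0 and 11. All of these higher genes had under 50 reads in either library.

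The most-read genes of this list were Cdk2ap1 (3244 and 2891 reads, 0.883), Ccng1, cyclin G1 (1377 and 911, 0.655, 0.602–0.713), and Cntd1 (902 and 952). Cdk15, Cdk5r2, Cdkl1, Cables1, Ccna1 and Ccnb3 had no read in either library, which allows up to 3 reads each, a CPM of 0.277 in the control and 0.288 in the TSA library.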
